A study of Mus musculus with 8 samples.

Results

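The 9 secreted factors described here were followed in muscle stem cells (MuSCs) from aged mice that were cultured with nicotinamide and pyridoxine (NAM/PN) or with vehicle. They were 3 cytokines (Il6, Lif and Csf1), 4 chemokines (Ccl2, Ccl7, Cxcl1 and Cxcl12), the matrix metalloproteinase Mmp3 and the metalloproteinase inhibitor Timp1. They were taken by name from the 55487 gene identifiers of the count table, as cytokines and factors that senescent cells are known to secrete. The rule itself uses no measured value, but the factors were chosen with earlier results of these data known. Each library was made from cells sorted from a pool of 2 mice, and 4 pools each gave 1 vehicle and 1 NAM/PN culture, which makes 8 libraries. The vehicle cultures received 1% DMSO in growth medium for 72 hours. The NAM/PN cultures received the combination at a stated final concentration of 1 mM in the same medium for the same time, without separate concentrations for nicotinamide and pyridoxine, and the labels do not say whether they also contained DMSO. All mice were labelled old, and the methods describe wild-type C57BL/6JRj males, whose aged group was 23 to 25 months old across the study and 23 to 24 months old in a MuSC culture assay of another duration and DMSO share. No young mice, freshly isolated cells or cells given nicotinamide or pyridoxine alone were compared here. Since these are bulk libraries, fewer cells that express a gene and less RNA of it per cell cannot be told apart.

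Il6 and Lif belong to the cytokine family that signals through the shared receptor chain gp130 (Il6st) to JAK and STAT proteins. Csf1 is the growth factor of macrophages, Ccl2 and Ccl7 draw monocytes through the receptor Ccr2, Cxcl1 draws neutrophils through Cxcr2, and Cxcl12 acts on Cxcr4 and Ackr3. Mmp3, also called stromelysin, cuts several matrix proteins, and Timp1 inhibits metalloproteinases and also binds the cell-surface protein Cd63. In regenerating muscle such factors pass between MuSCs, fibro-adipogenic progenitors and immune cells, and several of them are part of the secretory program of senescent cells.

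Total counts were 6472484 to 10163101 per library, with 7860965 to 9388076 in the vehicle group, and 12060 of the 19244 genes with a count passed the filter on low counts and were tested. Levels are given as CPM, the counts in 1000000 counts of normalised library size. The libraries hold tags from the 3′ end of transcripts, so CPM is a share of tags that was not divided by gene length and is read here within a gene. A count of 3, the limit that a count of 0 allows, corresponded to 0.280 to 0.457 CPM in a single library, for counting error only. Counts of weakly expressed genes were clumped. Among the 2195 genes with a mean of 5 to 15 counts, 55.3% of values were 0, where a Poisson mean of 5 gives 0.674%.

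Of the 9 factors, 7 had at least 1 count and 5 passed the filter. Il6, the cytokine that names its family, had 0 counts in all 8 libraries, and so did Mmp3. Over all 8 libraries together a count of 3 corresponds to 0.0451 CPM, so levels of these transcripts under that could not be detected at this depth, counting error alone considered. Lif and Cxcl1 had counts in 4 and 2 libraries and were too low to be tested. Csf1, Ccl2, Ccl7, Cxcl12 and Timp1 were tested. Summed over the 9 genes, the vehicle libraries held 886, 755, 647 and 618 CPM in pools 1 to 4, and the NAM/PN libraries 853, 863, 820 and 771 CPM. These sums overlapped and were mostly Csf1.

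**Figure D1:**
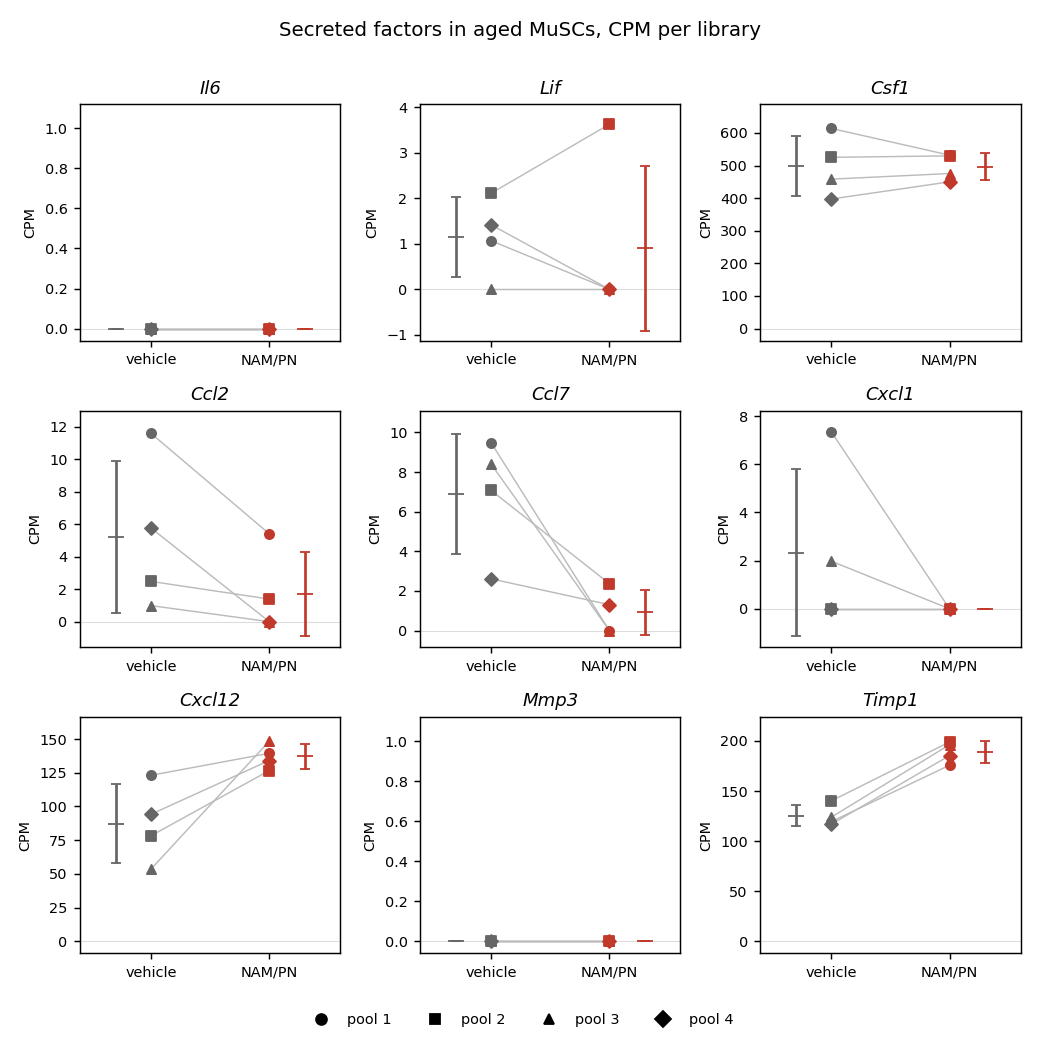
CPM of the 9 secreted factors in each library on linear axes, with vehicle in grey, NAM/PN in red, a marker shape per pool and a line joining the cultures of a pool. Bars beside the points are mean ± SD over 4 libraries. Timp1 and Cxcl12 sit higher in every NAM/PN culture than in any vehicle culture, Csf1 overlaps between the groups, and Il6 and Mmp3 lie at 0 in all 8 libraries.

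The upstream sequences of these genes are shown to set the factors that were not detected beside those that were. Promoter windows from 250 bases before to 50 bases after the start were read from RefSeq (GRCm38.p6) for 7 of the 9 genes, without Ccl2 and Ccl7. The NF-kB consensus was searched on both strands and was found in 3 of the 7 windows (Il6, Csf1 and Cxcl1), against 4.51% of 32851 promoters. The AP-1 consensus, spelled TGACTCA or TGAGTCA, was also found in 3 of the 7 (Il6, Lif and Mmp3), against 5.20% of promoters. Below, each stretch runs 5′ to 3′ on the strand of the gene, with the matched motif in capitals. The Csf1 match lies on the strand opposite to the gene, so its capitals are the reverse complement of the consensus.
Il6, NF-kB, chr5:30013050-30013099, plus strand: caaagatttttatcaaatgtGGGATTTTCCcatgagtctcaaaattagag
Cxcl1, NF-kB, chr5:90891154-90891203, plus strand: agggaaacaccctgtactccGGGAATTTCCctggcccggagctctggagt
Csf1, NF-kB, chr3:107760594-107760643, minus strand: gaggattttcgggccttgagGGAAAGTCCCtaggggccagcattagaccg
Lif, AP-1, chr11:4257320-4257366, plus strand: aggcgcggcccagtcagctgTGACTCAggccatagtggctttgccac
Mmp3, AP-1, chr9:7445756-7445802, plus strand: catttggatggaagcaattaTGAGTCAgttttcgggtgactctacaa
Cxcl12 and Timp1, the 2 factors with higher means under NAM/PN, held neither motif in this window. Csf1 had counts in every library and Il6 in none, and both windows hold an NF-kB match. A match is a run of letters and was not tested as a binding site in these cells.

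In the comparison of NAM/PN with vehicle, none of the 5 tested factors passed an adjusted p of 0.05 (edgeR quasi-likelihood test, Benjamini-Hochberg adjustment over all tested genes). Of all 12060 tested genes 154 passed, 34 higher and 120 lower, which is 1.28%. At an unadjusted p under 0.05, 2 of the 5 (Timp1 and Cxcl12) were counted, against 9.28% of tested genes. DESeq2 and limma each called 1 of the 5, Timp1, where DESeq2 called 2.4% and limma 1.92% of all tested genes. With the pool as a block edgeR called 0 of the 5 and 1.29% of all. The CPM values of the groups did not overlap for 3 of the 5 (Timp1, Cxcl12 and Ccl7), against 7.21% of tested genes, and 4 of the 5 moved the same way in all 4 pools, against 19.1%. Ccl7 would have passed the filter on its vehicle libraries alone, so these counts are descriptions.

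Timp1, on the X chromosome (chrX:20870166-20874735, plus strand, GRCm38), stood at 119, 140, 124 and 117 CPM in vehicle pools 1 to 4. In the NAM/PN cultures of the same pools it stood at 176, 199, 196 and 185 CPM. Every NAM/PN library was above every vehicle library, and the spread within either group was small beside the gap. The means were 125 ± 10.5 and 189 ± 10.6 CPM (SD, n = 4), a 1.51-fold ratio with a 95% interval of 1.18 to 1.93. The log2 difference of 0.60 (SE 0.17) had an edgeR p of 0.00216 and an adjusted p of 0.103. With the pool as a block the adjusted p from edgeR was 0.162. DESeq2 gave an adjusted p of 0.0146 and limma 0.0357, so that the call depended on the tool while the fold did not. Timp1 lies within Syn1 on the opposite strand and shares 0 exon bases with it.

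The inhibitor's usual partners were looked at beside it. Mmp3 was listed at 0 in all 8 libraries, and Mmp9, the gelatinase that Timp1 is known for inhibiting, was at 15.9, 13.4, 11.2 and 3.59 CPM in the vehicle libraries and 2.46, 0, 0 and 0 CPM in the NAM/PN libraries. All 4 vehicle values for Mmp9 lay above all 4 NAM/PN values, but the gene passed the filter on its vehicle libraries alone, so this is a description. Its edgeR adjusted p was 0.230, and DESeq2 gave 0.0282. Cd63, the tetraspanin that binds Timp1 at the cell surface, averaged 4992 CPM in the vehicle and 6176 CPM in the NAM/PN cultures, a log2 difference of 0.31 with an adjusted p of 0.483 in edgeR.

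Cxcl12, the chemokine that holds stem cells in their niches (chr6:117168535-117181367, plus strand), stood at 123, 78.3, 53.6 and 94.2 CPM in the vehicle libraries. With NAM/PN it stood at 139, 127, 148 and 134 CPM. The NAM/PN libraries lay close together and all above the vehicle libraries, which were spread more widely, and the vehicle library of pool 1 came near the NAM/PN range. The means were 87.3 ± 29.2 and 137 ± 9.18 CPM (SD, n = 4), a 1.57-fold ratio with a 95% interval of 1.13 to 2.17. The log2 difference was 0.65 (SE 0.22), with a p of 0.00915 and an adjusted p of 0.245 in edgeR. Neither the block by pool (0.206) nor DESeq2 (0.175) nor limma (0.131) brought the adjusted p under 0.05. Over the 8 libraries Cxcl12 and Timp1 had a Pearson r of 0.67, and of −0.29 once each group's mean was removed, so that within the groups the libraries with more Cxcl12 were not those with more Timp1.

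Ccl7 and Ccl2, both monocyte attractants, are neighbours on chromosome 11 (chr11:82045712-82047525 and chr11:82035571-82037453, both plus strand), 8258 bases apart. Ccl7 had 80, 57, 68 and 24 counts in the vehicle libraries, or 9.47, 7.07, 8.40 and 2.61 CPM. In the NAM/PN libraries it had 0, 17, 0 and 14 counts, or 0, 2.37, 0 and 1.31 CPM. All 4 NAM/PN values were below all 4 vehicle values, though the NAM/PN library of pool 2 came close to the vehicle library of pool 4. The means were 6.89 ± 3.02 and 0.919 ± 1.15 CPM (SD, n = 4). The fitted log2 difference was −2.88 (SE 1.46, 95% interval −5.94 to 0.18), with a p of 0.0635 and an adjusted p of 0.593 in edgeR. DESeq2 gave an adjusted p of 0.257 and limma 0.327. The fitted size depended on the model, with −4.05 (SE 2.24) under the block by pool and −4.10 (SE 1.81) in limma.

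Ccl2 had 98, 20, 8 and 53 counts with vehicle, or 11.6, 2.48, 0.988 and 5.77 CPM. With NAM/PN it had 44, 10, 0 and 0 counts, or 5.42, 1.39, 0 and 0 CPM. The groups overlapped, since the NAM/PN library of pool 1 lay above the vehicle libraries of pools 2 and 3, although within each pool the NAM/PN culture was the lower. The means of 5.21 ± 4.71 and 1.70 ± 2.56 CPM (SD, n = 4) differed by −1.61 on the log2 scale (SE 1.55, interval −4.86 to 1.65), with an edgeR adjusted p of 0.883. The block by pool gave −3.04 (SE 2.08) and limma −2.80 (SE 1.63), neither past the threshold. Ccl2 overlaps Gm17268 on the opposite strand with 0 shared exon bases. Ccl2 and Ccl7 had a Pearson r of 0.38 over the 8 libraries and −0.15 after the group means were removed.

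Cxcl1, the neutrophil attractant (chr5:90891241-90893115, plus strand), had 62, 0, 16 and 0 counts in the vehicle libraries and 0 in all 4 NAM/PN libraries. Both libraries with counts were vehicle libraries, of pools 1 and 3, and the other vehicle libraries also held none. The gene did not pass the filter, and when all genes with a count were kept its p was 0.0207 and its adjusted p 0.366 in edgeR. With weakly expressed genes so often listed at 0 in these libraries, a 0 here cannot be read as absence.

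Csf1 (chr3:107741048-107760469, minus strand) stood at 614, 525, 458 and 397 CPM in the vehicle libraries and 532, 530, 476 and 450 CPM in the NAM/PN libraries. The groups overlapped fully, and NAM/PN was higher in 3 pools and lower in pool 1. The means were 499 ± 92.8 and 497 ± 40.7 CPM (SD, n = 4), a ratio of 0.996 with a 95% interval of 0.786 to 1.26. The adjusted p was 0.998 in edgeR. A change of Csf1 within that interval could not be resolved with 4 pools.

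Lif (chr11:4257557-4272514, plus strand) had 9, 17, 0 and 13 counts with vehicle and 0, 26, 0 and 0 counts with NAM/PN. The highest value of all, 3.62 CPM, was in the NAM/PN library of pool 2, whose vehicle partner was also the highest vehicle library at 2.11 CPM. Without the filter the log2 difference was −0.36 with a p of 0.894 in edgeR. Il6 (chr5:30013114-30019981, plus strand) and Mmp3 (chr9:7445822-7455975, plus strand) gave no counts to compare.

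**Figure D2:**
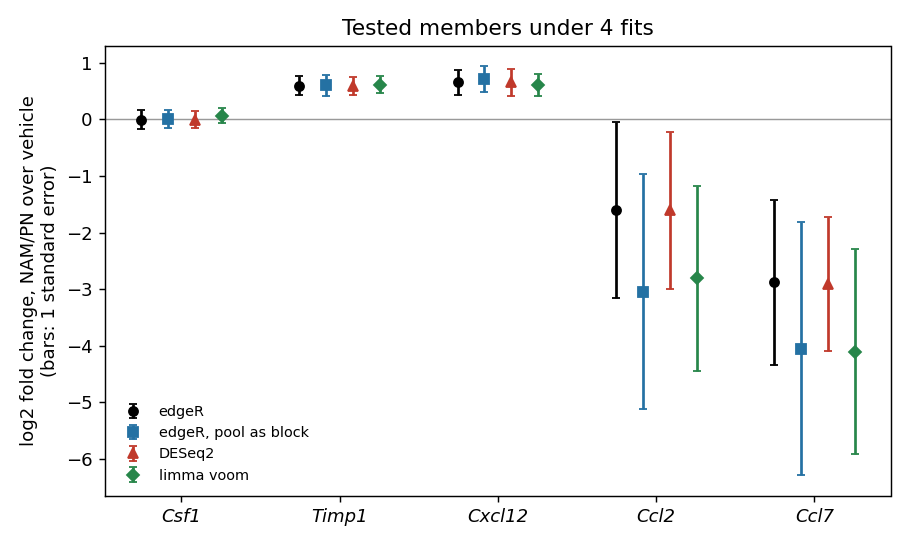
Log2 fold change of NAM/PN over vehicle for the 5 tested factors (points) with 1 standard error (bars), fitted by edgeR, by edgeR with the pool as a block, by DESeq2 and by limma. Timp1 and Cxcl12 stay near 0.6 in every fit and Csf1 near 0, whereas Ccl2 and Ccl7 have wide errors, edgeR giving standard errors of 1.55 and 1.46.

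The 3′ untranslated regions of these genes, where 3′ tags fall and where AU-rich elements mark unstable transcripts, differed in length and content (longest coding transcript, GENCODE M21). The AU-rich pentamer ATTTA occurred 10 times in the 1668 bases of Il6, 7 times in the 3180 of Lif and 7 times in the 592 of Cxcl1. It occurred 4 times in the 2111 bases of Csf1 and 4 times in the 5188 of Cxcl12, the longest of the set. The shorter regions of Ccl7 (435 bases), Ccl2 (275) and Mmp3 (285) held 2, 1 and 1. Timp1 held 0 in its 101 bases. The median gene of 21037 held 1, in a region of 934 bases, and 64.7% held any. The extended form TTATTTATT was present 2 times each in Lif and Cxcl1, and 7.56% of genes hold it.

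Receptors of these factors were read from the same fit. Of 11 listed receptors, 6 were tested, 0 passed, and 4 were at 0 in every library, namely the macrophage receptor Csf1r and the chemokine receptors Ccr1, Ccr2 and Cxcr2. The shared chain Il6st averaged 94.2 CPM in vehicle and 75.8 CPM in NAM/PN cultures (log2 difference −0.31, adjusted p 0.782 in edgeR). Lifr averaged 11.2 and 16.9 CPM and Il6ra 1.81 and 3.94 CPM, with adjusted p-values of 0.869 and 0.943 in edgeR. The Cxcl12 receptor Cxcr4 averaged 60.3 and 49.8 CPM (−0.28 on the log2 scale) and the scavenging receptor Ackr3 50.4 and 51.4 CPM (0.03). Ccr3, a receptor of Ccl7, had 10 counts in 1 NAM/PN library. Receptors of Lif and Cxcl12 were thus measured, whereas those of Csf1 and Ccl2 were listed at 0, which cannot be read as absence at these depths.

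Around Mmp3 and Timp1, 22 of 38 other matrix proteases and inhibitors were tested, and at an adjusted p under 0.05 in edgeR 4 fell while 0 rose with NAM/PN. Of the 22, 10 had log2 differences above 0, among them Adam15, a membrane-bound metalloproteinase, which averaged 23.1 ± 5.49 CPM in vehicle and 46.3 ± 11.1 CPM in NAM/PN cultures without overlap (log2 1.00, SE 0.30, adjusted p 0.143). Those 4 are 18.2% of the 22, against 1.28% of all tested genes, and the median log2 difference of the 22 was −0.17, against −0.0022 for all tested genes. The list was chosen with earlier results of these data known, so these shares are descriptions. Serpine2, a thrombin inhibitor also called protease nexin, fell from 388 ± 60.4 to 139 ± 20.2 CPM (log2 −1.48, SE 0.18, adjusted p 0.000147 in edgeR). Its vehicle libraries lay at 302 to 436 CPM and its NAM/PN libraries at 117 to 165 CPM. These ranges did not overlap.

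Mmp14, the membrane-bound metalloproteinase that activates Mmp2, fell from 65.5 ± 10.8 to 20.7 ± 5.92 CPM (log2 −1.67, SE 0.29, adjusted p 0.00359 in edgeR). Mmp2, a gelatinase, was at 40.1, 18.5, 14.6 and 23.1 CPM in vehicle pools 1 to 4 and 2.34, 1.25, 6.24 and 2.90 CPM in NAM/PN pools 1 to 4 (log2 −2.92, SE 0.58, adjusted p 0.0106). Every NAM/PN value of either enzyme was below every vehicle value. Timp2, an inhibitor that also takes part in the activation of Mmp2, fell from 677 ± 117 to 417 ± 16.3 CPM (log2 −0.70, SE 0.16, adjusted p 0.0264), a direction opposite to the higher Timp1 values. With the pool as a block its adjusted p was 0.0590 in edgeR, and the number called in the list was 3. DESeq2 called 5 and limma 3, where Mmp2 was not called (0.0757).

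**Figure D3:**
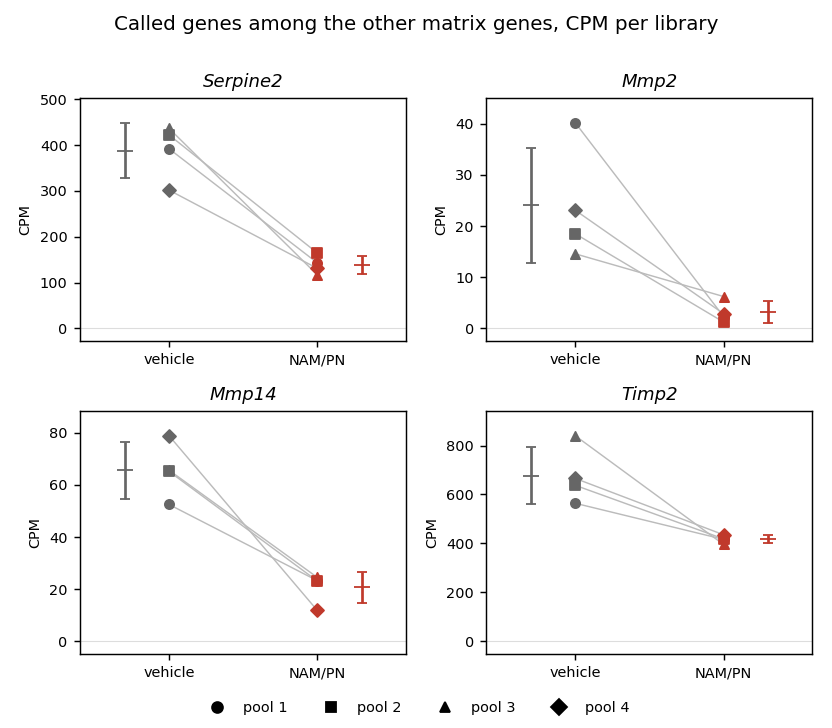
CPM per library of the 4 other matrix genes with an adjusted p under 0.05, drawn as for the secreted factors: grey vehicle, red NAM/PN, marker shapes for pools, and mean ± SD over 4 libraries. Serpine2, Mmp2, Mmp14 and Timp2 lie lower in every NAM/PN culture than in any vehicle culture, Serpine2 at 117 to 165 CPM against 302 to 436 CPM.

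Among 35 other cytokines and growth factors, 10 were at 0 in every library and 13 were tested. None of the 13 passed in edgeR, DESeq2 or limma, 3 had an unadjusted p under 0.05 in edgeR (9.28% of all tested genes did), and their median log2 difference was −0.12. Those 3 were Gdf15, a stress-induced cytokine (log2 −0.73, adjusted p 0.337 in edgeR), Spp1, osteopontin (0.41, 0.354), and Ctf1, cardiotrophin, which signals through gp130 (−3.17, 0.411). Ctf1 was at 10.7, 3.85, 20.3 and 5.44 CPM in the vehicle libraries and 1.11, 3.34, 0 and 0 CPM in the NAM/PN libraries. The NAM/PN library of pool 2 came close to its vehicle partner, and the gene passed the filter on its vehicle libraries alone, so the values are a description. Clcf1, another gp130 cytokine, averaged 30.9 and 28.5 CPM (log2 −0.12, adjusted p 0.985).

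Of 26 other chemokines, 15 were at 0 in every library and 4 were tested, with 0 passing and a median log2 difference of 0.23. Ccl27a, Ccl5 and Ccl25 gave log2 differences of 0.96, 0.33 and 0.12, with adjusted p-values of 0.963 to 0.992 in edgeR. In the main edgeR fit the monocyte chemokines Ccl2 and Ccl7 were thus the tested chemokines with fitted differences under 0, and neither passed. In limma Ccl5 was under 0 as well (log2 −0.82).

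In the pathways that these factors act through or are induced by, 0 genes passed in edgeR. For signalling of the IL-6 family, 20 of 23 listed genes were tested, with a median log2 difference of −0.07. The feedback inhibitors Socs2 (log2 −0.67, adjusted p 0.190) and Socs5 (1.11, 0.197) had the smallest p-values there, followed by the kinase Tyk2 (−1.15, 0.575). For the NF-kB pathway, 25 of 27 were tested, with a median of −0.20 and 16 of 25 below 0, against 6056 of all 12060. Its first 3 by p-value were the subunit Nfkb2 (−0.66, 0.261), the ubiquitin ligase Birc2 (−0.95, 0.468) and the kinase Map3k7 (−0.39, 0.598). Among other factors upstream of secreted genes in senescence, 22 were tested with a median of 0.14, led by Hmgb2 (0.48, 0.453), the AP-1 subunit Fosl1 (0.45, 0.472) and the alarmin Hmgb1 (0.61, 0.544). At an unadjusted p under 0.05, 2 genes of each of these 3 lists were counted, near the 9.28% of all tested genes, and DESeq2 and limma called 0 in each.

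**Figure D4:**
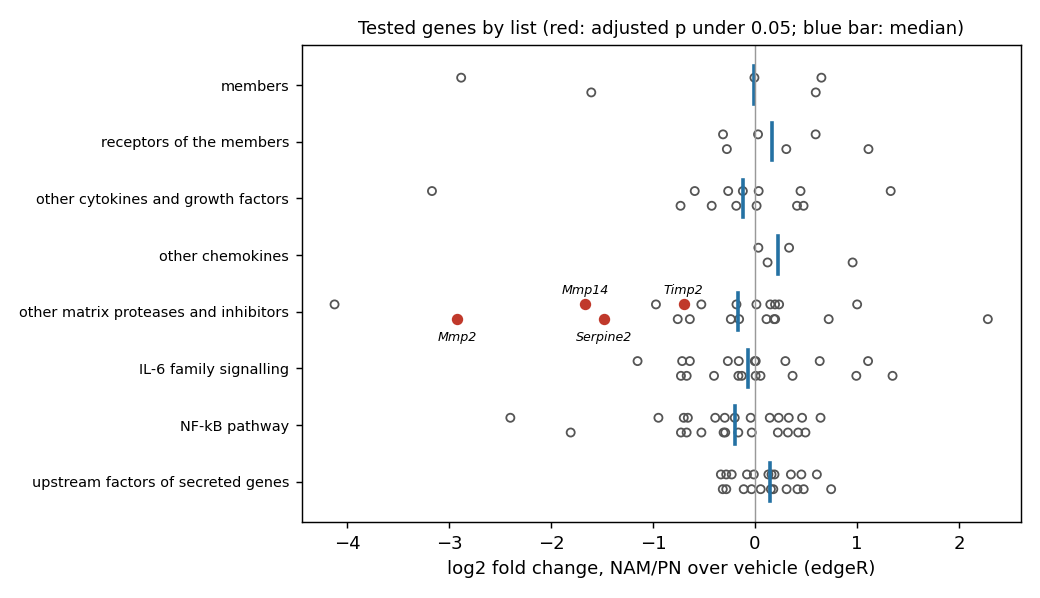
Log2 fold change of NAM/PN over vehicle for the tested genes of each list (open circles), with genes at an adjusted p under 0.05 in red and named, and the list's median as a blue bar. The 4 named genes of the matrix list lie below 0, and the signalling lists scatter around 0 with medians from −0.20 to 0.14.

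Markers of the sorted cell type and of other cells were read beside these results. All 10 myogenic markers had counts, with sums of 2526 to 2836 CPM in the vehicle libraries and 1986 to 2364 CPM in the NAM/PN libraries, and 1 of 8 tested (Dag1) was called lower, against 1.28% of all tested genes called in either direction. The sort had removed cells with CD45, CD31, CD11b or Sca1. Of 12 macrophage and leukocyte markers, 8 were at 0 in every library, among them the defining Ptprc, Adgre1 and Itgam, and the sums were 4.08 to 17.1 CPM in vehicle and 3.50 to 10.8 CPM in NAM/PN cultures, which overlap. The other 4 of that list had counts. Cd68 was counted in all 8 libraries, with means of 3.60 CPM in vehicle and 4.85 CPM in NAM/PN cultures. Cd14 had 55, 33, 20 and 69 counts in vehicle pools 1 to 4 and 26, 8, 0 and 0 counts in NAM/PN pools 1 to 4. It was present and absent in the same libraries as Ccl2 and lower with NAM/PN in all 4 pools. The gp130 cytokine Ctf1, of another list, had both traits too. Cd14 passed the filter on its vehicle libraries alone, so its log2 difference of −2.24 (adjusted p 0.782 in edgeR) is a description. Mrc1 had counts in 3 libraries and Fcer1g in 1. The part of these cells in the Ccl2 and Ccl7 values was not tested. Of 12 fibro-adipogenic markers, 4 (Pdgfra, Lum, Dpt and Mfap5) were at 0 in every library. In vehicle most of the list's sum was Col3a1, Gsn and Cd34 (means of 155, 134 and 104 CPM), and the sort had selected cells with CD34. The sums of that list were 345 to 462 CPM in vehicle and 138 to 1205 CPM in NAM/PN cultures, and 2 of 4 tested (Gsn and Col3a1) were called lower, against the same 1.28%. The upper end was Col1a1, at 4.26, 1.74, 41.3 and 1.74 CPM in vehicle pools 1 to 4 and 486, 1032, 3.96 and 3.27 CPM in NAM/PN pools 1 to 4 (log2 4.97, adjusted p 0.0709 in edgeR), high in the NAM/PN libraries of pools 1 and 2 and overlapping vehicle in the other two.

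The 10 mural cell markers summed to 973 to 1548 CPM in vehicle and 608 to 883 CPM in NAM/PN cultures, and 5 of them were tested. Most of the sum was Des, which muscle cells also express (means of 813 and 610 CPM, adjusted p 0.460 in edgeR), and Acta2. In edgeR Acta2 was the 1 gene of the 5 called, against 1.28% of all tested genes. It fell from a mean of 368 to 70.5 CPM (log2 −2.38, adjusted p 0.000147). Limma called 2, Acta2 and Des (adjusted p 0.0478), against 1.92% of all tested genes. Mcam had a log2 difference of 0.24 (adjusted p 0.990), Myh11 was at 0 in every library, and Pdgfrb and Kcnj8 had counts in 1 library each. The part of other cell types in the differences of Serpine2, Mmp2, Mmp14 and Timp2 was not tested. Endothelial markers summed to 3.46 to 21.8 CPM in vehicle and 9.85 to 29.6 CPM in NAM/PN cultures, with Emcn, Flt1, Cldn5 and Tie1 at 0. Most of that sum was Egfl7, the 1 tested gene of the list, which averaged 8.31 and 16.9 CPM and was higher with NAM/PN in all 4 pools (log2 1.02, adjusted p 0.687 in edgeR).

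Genes whose log2 CPM followed a factor most closely over the 8 libraries were named as a description, without a test, since the libraries share the treatment contrast. For Timp1 these included the sulfiredoxin Srxn1 (Pearson r 0.964) and the pentraxin Nptx1 (0.961). For Cxcl12 they were the kinase Pim3 (0.986), Eif1ad (0.978) and the exocyst subunit Exoc7 (0.974). For Csf1, whose groups overlapped, they were Ythdf2, a reader of methylated RNA (0.937), Hgs (0.920) and Wdr36 (0.909). The low counts of Ccl7 were tracked by Dock11 (0.975), Thg1l (0.974) and Kctd7 (0.973), and those of Ccl2 by Cox6c2 (0.970), Odr4 (0.968) and Ankrd16 (0.952).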

How the data were processed

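RNA of MuSC cultures was measured with a 3′ tag kit (QuantSeq, forward), from 30 ng of RNA per library by the study's methods. The authors aligned reads to GRCm38 with STAR and deposited raw counts per Ensembl gene from HTSeq (version 2.16.2 in the submitters' processing notes). Strand setting, annotation release and treatment of multi-mapped reads are not given in the sources used here. The kit as described carries no molecular identifiers, and the detection limits cover counting error only. The intervals of the differences between groups come from the edgeR quasi-likelihood fit, which also includes variation between libraries.

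Counts were filtered with filterByExpr (minimum count 10, minimum total 15), normalised by TMM and tested with edgeR 4.0.16 (quasi-likelihood F test, treatment only, all 8 libraries) in R 4.3.3. A symbol was found for 55141 of 55487 identifiers. P-values were adjusted over 12060 tested genes. Standard errors were the log2 difference over the root of F. Group and pool came from the labels. The same pool gave both cultures, which is the pairing behind the block by pool. Correlations of the deviations of paired libraries were −0.03 to 0.03. The cultures of a group came from separate pools of mice. DESeq2 1.42.0, limma 3.58.1 (voomWithQualityWeights with duplicateCorrelation on pool), other filters and left-out libraries were alternatives. The edgeR steps were tested on simulated data.

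All 9 factors are named. Of each list of related genes, those called are named, or the smallest p-values up to 3, receptors freely, and for each tested factor the 3 most correlated genes. Clcf1, Mmp9, Adam15 and single cell type markers were named after their values were seen. The factors and lists were chosen with earlier results of these data known. Gene positions are GENCODE M21 on GRCm38, the build of the counts. Of the list symbols, 2 were not matched. Some genes are not reported here and are left out of the lists and their counts.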

Additional observations from a re-analysis of the deposited data

Results flagged for a closer look

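Lif in the NAM/PN library of pool 2 stood apart from its group, at 3.62 CPM against 0 in the other 3 libraries, so that the gap took the group's whole range. This ratio takes its largest value whenever 3 of 4 libraries are at 0, and zeros were frequent among weakly expressed genes, so the rate that chance gives for continuous values does not apply. Of 13 groups of 4 libraries examined this way, 1 stood out.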

How the results depend on the processing

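Without the replicate block 154 genes passed. With the replicate block by pool 156 passed, and no factor was called in either. The count was 289 with DESeq2, 366 without the filter, 232 with limma and 244 at a threshold of 0.1, and 42 to 177 when libraries or pools were left out (80 without vehicle 2, 87 without vehicle 4, 92 without NAM/PN 1, 65 without pool 1, 42 without pool 2 and 94 without pool 4). Factors called numbered 0, and 1 (Timp1) with DESeq2 and 1 with limma. Leaving out libraries gave 0 to 0. The log2 difference of Csf1 changed sign with the replicate block (0.0096) and with limma (0.067), and ran from −0.11 to 0.11 with libraries left out. Timp1 stayed at 0.56 to 0.65 with libraries left out (adjusted p 0.0947 to 0.397 in edgeR) and Cxcl12 at 0.43 to 0.86 (0.0995 to 0.655). Ccl7 ran from −3.88 to −2.28 and Ccl2 from −3.46 to −0.86 with libraries left out, and under other models and settings from −4.10 to −2.88 and from −3.04 to −1.60. The cause of these shifts was not tested. Depth limits what can be said of Il6, Mmp3, Lif and Cxcl1, since 0 counts and low clumped counts give no resolved level.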
